A study of Homo sapiens with 8 samples.

Results

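The genes described here are 8 genes widely used as markers of neurons: NEFM, NEFL, STMN2, TUBB3, DCX, GAP43, ELAVL3 and ELAVL4. They were picked by gene symbol from the 60558 genes measured by RNA-seq in 2D human intestinal epithelial cells (hIECs). These cells were grown from H9, a human embryonic stem cell line in wide use. The 8 libraries form 4 groups of 2. Normal hIECs and inflamed hIECs were each studied with and without PM10, which is coarse airborne particulate matter. By the study's methods, the inflamed groups received the cytokines IFNγ and TNFα at 50 ng/ml each for 10 days, and PM10 was added to its groups at 100 μg/ml during the final 7 of these days. In the labels, every group carries a treatment time of 10 days. All 4 groups were cultured in the same differentiation medium, which held valproic acid at 1 mM and Wnt-C59 at 2 μM, and all come from 1 cell line. The study set out to ask how PM10 acts on normal and inflamed intestinal cells.

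Neurons keep their long processes with a cytoskeleton of their own, made of neurofilaments and of microtubules built from particular tubulins and bound by particular regulators. Neurofilament light (NEFL) and medium (NEFM) chains assemble into the filaments of the axon, stathmin-2 (STMN2) regulates microtubules in growing axons, TUBB3 is the β-tubulin typical of neurons, doublecortin (DCX) binds microtubules in migrating young neurons, and GAP43 is a protein of the axonal growth cone. ELAVL3 and ELAVL4 encode neuronal RNA-binding proteins of the Hu family. In the gut, such genes are active in the enteric nervous system and some are also used by enteroendocrine cells.

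The 250 bases that precede the start site are printed for DCX, GAP43 and TUBB3, because these 3 genes fell with cytokines, DCX far more than the other two, and their promoters differ in base composition. The promoters of NEFM, NEFL and STMN2 were not used here. The sequences are RefSeq's (GRCh38.p14), written 5′ to 3′ on the strand of the gene, with each CpG dinucleotide in capitals, and each ends at the base before the start of the gene's reference transcript. The DCX window lies at chrX:111412193-111412442 on the minus strand, the GAP43 window at chr3:115623260-115623509 on the plus strand and the TUBB3 window at chr16:89923092-89923341 on the plus strand.
DCX: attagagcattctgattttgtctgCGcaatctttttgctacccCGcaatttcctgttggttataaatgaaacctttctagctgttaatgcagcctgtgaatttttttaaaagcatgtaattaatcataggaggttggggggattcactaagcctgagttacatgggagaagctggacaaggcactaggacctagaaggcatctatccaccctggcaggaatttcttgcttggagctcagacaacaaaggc
GAP43: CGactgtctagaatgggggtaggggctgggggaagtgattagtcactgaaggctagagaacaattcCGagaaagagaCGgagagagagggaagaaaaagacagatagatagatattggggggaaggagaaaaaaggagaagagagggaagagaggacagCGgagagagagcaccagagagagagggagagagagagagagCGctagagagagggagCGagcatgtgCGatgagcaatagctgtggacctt
TUBB3: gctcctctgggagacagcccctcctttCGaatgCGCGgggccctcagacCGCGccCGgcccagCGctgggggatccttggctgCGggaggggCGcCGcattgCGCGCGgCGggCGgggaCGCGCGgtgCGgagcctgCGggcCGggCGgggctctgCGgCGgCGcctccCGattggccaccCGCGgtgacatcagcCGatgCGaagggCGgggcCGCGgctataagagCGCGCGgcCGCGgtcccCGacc

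The DCX window holds 2 CpG and the GAP43 window 7, whereas the TUBB3 window holds 39. The observed over expected CpG ratio was 0.176 for DCX, at percentile 5.84 of the windows of all genes tested, 0.653 for GAP43, at percentile 31.1, and 1.03 for TUBB3, at percentile 89.9. The median over those windows was 0.794. The motif GGACAGC, one end of the site bound by the neuronal gene repressor REST, was searched on both strands and stands in the GAP43 window, 97 bases before the start, as in 4.76% of all 35116 windows of this length. The other end of the REST site (CAGCACC, 6.16% of all windows) is in none of the 3 windows. These matches and the CpG values describe letters only, and whether they bear on the change with cytokines was not tested.

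Of the 8 genes, 6 had values above 0, and the same 6 reached the minimum for testing, at least 1 FPKM in at least 2 libraries. DCX reached it only in libraries without cytokines, so its entry into the tests depended on the groups where it was high. FPKM is a fragment count divided by the length of the transcript and by the size of the library, so levels of different genes can be set side by side. ELAVL3 (19:11451326-11481046 on the minus strand, GRCh38) and ELAVL4 (1:50024029-50203772 on the plus strand) were listed at 0 in all 8 libraries. Each library's smallest value above 0 was between 0.164 and 0.228 FPKM, so a 0 stands for any level under about that value. The 6 other genes together summed to 344 to 364 FPKM in normal hIECs, 395 to 396 with PM10, 194 to 198 in inflamed hIECs and 197 to 201 in inflamed hIECs with PM10.

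The main difference was between libraries with and without cytokines. With cytokines and no PM10, limma called 5 of the 6 tested genes lower and none higher at an adjusted p-value under 0.05, where 30.3% of all 14206 genes tested were called lower and 56.2% were called in either direction. DCX, NEFM and STMN2 fell at least 2.22-fold in FPKM, while TUBB3 and GAP43 fell by less than 20% of their level. NEFL did not pass the test. DCX is among the 5 called lower but reached the minimum for testing only without cytokines. Its call is thus not independent of that filter. PM10 alone gave no call among the 6 genes, where 9.23% of all genes were called. In inflamed hIECs limma called NEFM lower and STMN2 higher with PM10, beside 9.02% of all genes lower and 6.22% higher. The STMN2 call was lost when any inflamed library, with or without PM10, was left out. In these bulk libraries, fewer cells of a type and less RNA per cell cannot be told apart.

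**Figure D1:**
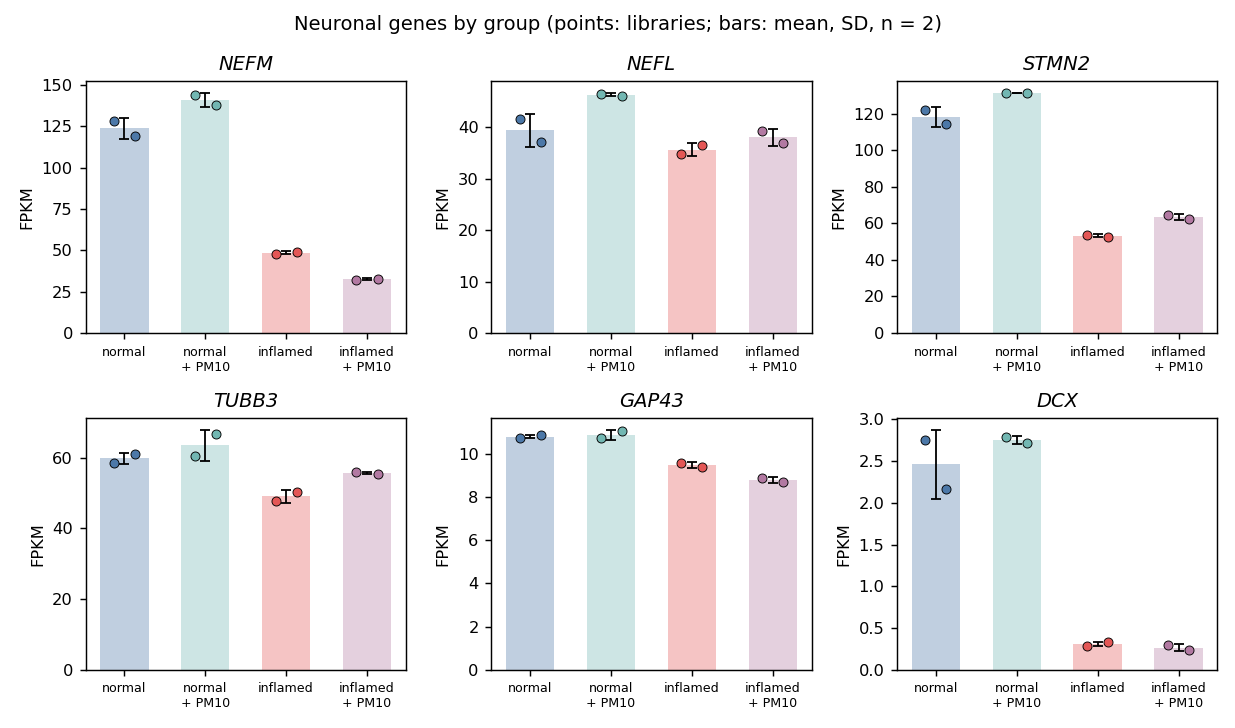
Level of the 6 detected neuronal genes, in FPKM on a linear axis that starts at 0, in each of the 4 groups (points, the 2 libraries of a group; bars, mean; error bars, SD). NEFM, STMN2 and DCX drop steeply with cytokines, NEFM drops again from 48.6 to 32.6 FPKM when PM10 is added, and NEFL and GAP43 stay within a narrow range.

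The neurofilament genes lie close to each other on chromosome 8. NEFM (ENSG00000104722, 8:24913758-24919098 on the plus strand, 4 exons after merging transcripts) stood at 128 and 119 FPKM in the normal libraries, 144 and 138 with PM10, 48.0 and 49.1 in inflamed hIECs, and 32.3 and 32.9 in inflamed hIECs with PM10. Every library with cytokines was below every library without, and the inflamed libraries with PM10 were below the inflamed libraries without it. The group means were 124 ± 6.5, 141 ± 4.17, 48.6 ± 0.814 and 32.6 ± 0.431 FPKM (SD, n = 2). Without PM10 the NEFM level was 2.55-fold lower with cytokines, and with PM10 it was 4.32-fold lower. On the log2(FPKM + 1) scale these differences were -1.33 (SE 0.052, limma adjusted p = 1.13e-06) and -2.08 (SE 0.052, adjusted p = 1.03e-07).

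NEFM was the one member whose response to PM10 differed between normal and inflamed hIECs by the test of that difference. In normal hIECs its log2 difference with PM10 was 0.19 (SE 0.052, limma adjusted p = 0.0653), and in inflamed hIECs it was -0.56 (SE 0.052, adjusted p = 0.00118), a level 32.9% lower. The interaction was -0.75 on the log2 scale (SE 0.074, limma adjusted p = 0.00247). limma called 1 of the 6 genes in this interaction, against 6.6% of all genes called, 4.48% lower and 2.11% higher. Over all genes this was a split of 300 higher and 637 lower, which became 453 and 539 under median centring. The NEFM interaction stayed between -0.80 and -0.70 when each library was left out in turn, and was called in 15 of 15 alternatives.

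NEFL (ENSG00000277586, 8:24950955-24956721 on the minus strand) behaved differently from its partner. Its level was 41.7 and 37.1 FPKM in the normal libraries, 46.6 and 46.1 with PM10, 34.8 and 36.5 in inflamed hIECs, and 39.2 and 36.9 in inflamed hIECs with PM10. The libraries of normal hIECs overlapped with those of inflamed hIECs with PM10. Without PM10 the log2 difference with cytokines was -0.14 (95% interval -0.29 to 0.017, limma adjusted p = 0.113). Without the normal replicate 2 library it was -0.22 (adjusted p = 0.0203). With PM10 in both groups NEFL fell by 0.28 on the log2 scale (SE 0.066, limma adjusted p = 0.00743), a call that was lost without inflamed PM10 replicate 2 (adjusted p = 0.0543).

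Within a library, the level of NEFM was 3.08 and 3.21 times that of NEFL in normal hIECs and 3.09 and 2.99 times with PM10. This ratio was 1.38 and 1.34 in inflamed hIECs, and 0.824 and 0.893 in inflamed hIECs with PM10. The order of the neurofilament chains was thus turned in inflamed hIECs with PM10, where NEFL was the higher in both libraries. The ratio of NEFM to STMN2 was 1.04 to 1.10 in the libraries without cytokines, 0.892 and 0.935 in inflamed hIECs, and 0.499 and 0.526 in inflamed hIECs with PM10. A ratio shows unequal change of 2 genes and not which of them moved.

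**Figure D2:**
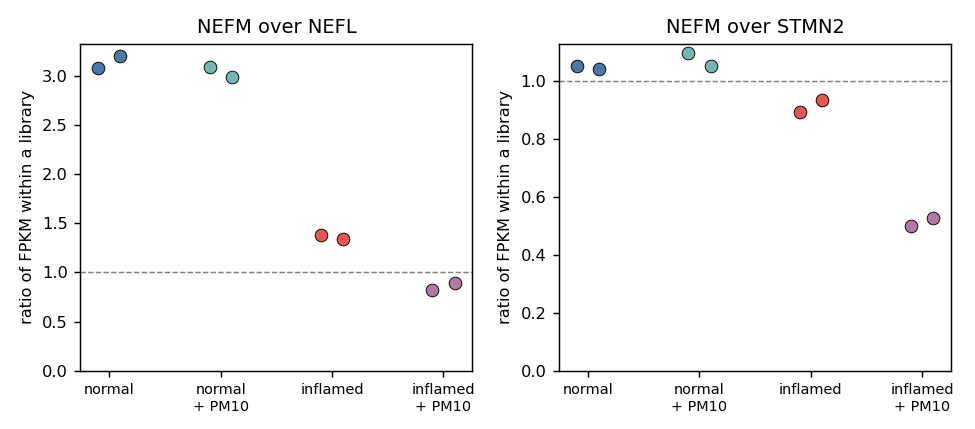
Ratio of FPKM within each library, on linear axes from 0, for NEFM over NEFL (left) and NEFM over STMN2 (right), with the 2 libraries of each group as points and a dashed line at 1. Both ratios are lowest in inflamed hIECs with PM10, at 0.824 and 0.893 on the left and 0.499 and 0.526 on the right.

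STMN2 (ENSG00000104435, 8:79611117-79666158 on the plus strand, 7 merged exons) had a level of 122 and 114 FPKM in normal hIECs, 131 and 131 with PM10, 53.8 and 52.5 in inflamed hIECs, and 64.8 and 62.5 in inflamed hIECs with PM10. Libraries with cytokines all lay below those without, and within the inflamed hIECs both PM10 libraries were the higher ones. Cytokines lowered the STMN2 level 2.22-fold without PM10 and 2.06-fold with PM10. The log2 differences were -1.14 (SE 0.049, limma adjusted p = 1.89e-06) and -1.03 (SE 0.049, adjusted p = 2.37e-06).

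With PM10 in inflamed hIECs, STMN2 rose by 19.7% of its level, or 0.25 on the log2 scale (SE 0.049, limma adjusted p = 0.0163). This call was lost when any one of the 4 inflamed libraries was left out, with adjusted p-values of 0.0679 to 0.106. In this comparison limma called 1 of the 6 genes higher (STMN2), against 6.22% of all genes, and 1 lower (NEFM), against 9.02%. In normal hIECs the log2 difference of STMN2 with PM10 was 0.15 (SE 0.049, limma adjusted p = 0.0962). The interaction for STMN2 was 0.10 (95% interval -0.059 to 0.27, limma adjusted p = 0.417), so its PM10 responses in the 2 kinds of hIECs were not shown to differ.

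TUBB3 (ENSG00000258947, 16:89921392-89938761 on the plus strand) stood at 58.6 and 60.9 FPKM in normal hIECs, 60.4 and 66.6 with PM10, 47.6 and 50.4 in inflamed hIECs, and 55.8 and 55.4 in inflamed hIECs with PM10. The 4 libraries with cytokines were the lower ones, but the gap to the others was small. TUBB3 fell by 0.28 on the log2 scale with cytokines (SE 0.06, limma adjusted p = 0.00552), from a level of 59.7 ± 1.64 to 49.0 ± 1.95 FPKM (SD, n = 2). With PM10 in both groups it fell by 0.19 (SE 0.06, limma adjusted p = 0.0264). That second call was lost under median centring and without normal PM10 replicate 2 or either inflamed PM10 library (adjusted p-values of 0.0882 to 0.167).

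DCX (ENSG00000077279, X:111293779-111412429 on the minus strand, 9 merged exons) was the weakest of the 6 genes and showed the widest fold change. Its level was 2.75 and 2.17 FPKM in normal hIECs and 2.79 and 2.71 with PM10. In inflamed hIECs it was 0.288 and 0.327 FPKM, and in inflamed hIECs with PM10 0.297 and 0.234 FPKM, near the lowest value that the libraries list above 0. The DCX level was 7.99-fold lower with cytokines without PM10 and 10.4-fold lower with PM10. On the log2(FPKM + 1) scale, which shrinks differences of weak genes, DCX fell by 1.40 (SE 0.10, limma adjusted p = 3.03e-05) and by 1.57 (SE 0.10, adjusted p = 1.17e-05). With a pseudocount of 0.1 in place of 1 the same differences were -2.64 and -2.97.

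GAP43 (ENSG00000172020, 3:115623510-115721490 on the plus strand) varied least. Its level was 10.7 and 10.8 FPKM in normal hIECs, 10.7 and 11.04 with PM10, 9.56 and 9.37 in inflamed hIECs, and 8.88 and 8.68 in inflamed hIECs with PM10. No library with cytokines reached the level of a library without. GAP43 fell by 12.2% with cytokines without PM10, a log2 difference of -0.17 (SE 0.053, limma adjusted p = 0.0266), and by 19.3% with PM10, a log2 difference of -0.28 (SE 0.053, adjusted p = 0.00248). The first call was lost without normal replicate 2, without either inflamed library, and when the 2 groups alone were fitted (adjusted p-values of 0.0529 to 0.119).

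**Figure D3:**
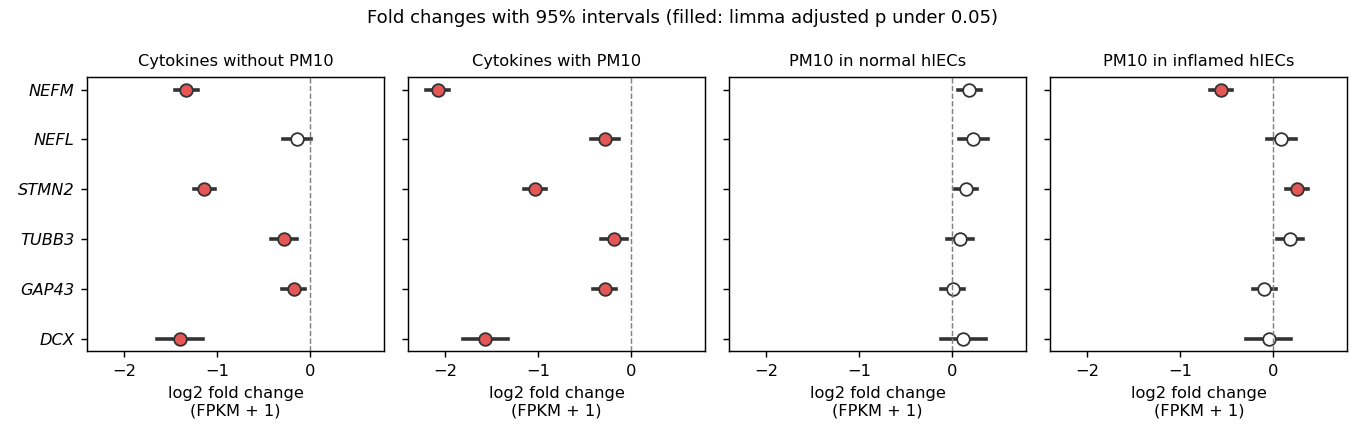
Difference in log2(FPKM + 1) of the 6 tested neuronal genes in 4 comparisons (points; lines, 95% intervals from limma; filled points, adjusted p-value under 0.05). In the comparison of cytokines without PM10, DCX at -1.40, NEFM at -1.33 and STMN2 at -1.14 lie far from the other 3 genes. For PM10 in inflamed hIECs, NEFM lies at -0.56 and STMN2 at 0.25, a call that was lost when any inflamed library was left out.

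Cytokines were followed by lower levels in the presence of PM10 too. With PM10 in both groups, limma called 6 of the 6 genes lower with cytokines, against 39.6% of all genes lower, 25.8% higher and 65.4% in either direction. The median log2 difference of the 6 genes was -0.71 without PM10 and -0.66 with PM10, beside -0.028 and -0.11 over all genes tested. The cytokine and PM10 comparisons share libraries, the normal ones among them. Setting all 4 libraries with cytokines against all 4 without, 5 genes did not overlap and all 5 were lower (NEFM, STMN2, TUBB3, DCX and GAP43), against 33.1% of all genes lower and 24.4% higher without overlap. The same 5 genes were found after median centring and after quantile normalization. DCX was tested only because of its level without cytokines, so its place in these counts follows in part from the filter.

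For PM10 in normal hIECs, limma called 0 of the 6 genes, against 9.23% of all genes tested (5.51% higher and 3.72% lower), while 3 genes (NEFM, NEFL and STMN2) had an unadjusted p-value under 0.05, a threshold passed by 29.6% of all genes. NEFL was at 39.4 ± 3.22 FPKM without and 46.3 ± 0.327 with PM10 (SD, n = 2), a log2 difference of 0.23 (SE 0.066, limma adjusted p = 0.0707). Quantile normalization gave 2 calls, NEFM and STMN2, and leaving out normal replicate 1 gave 3, NEFM, NEFL and STMN2. The median log2 difference of the 6 genes was 0.14, beside 0.059 over all genes. None of the 6 genes separated the 4 PM10 libraries from the 4 others, where 3.77% of all genes were higher and 1.58% lower without overlap (2.62% and 2.53% after median centring).

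The order of the 6 levels changed between groups. In normal hIECs NEFM came first and STMN2 second with overlapping libraries, followed by TUBB3, NEFL, GAP43 and DCX, each apart from the next. In inflamed hIECs STMN2 came first, TUBB3 and NEFM overlapped, and NEFL, GAP43 and DCX kept their places. In inflamed hIECs with PM10 NEFM dropped below NEFL as well. Among all genes above 0 in its library, NEFM lay at percentile 97.5 to 98.0 without cytokines and at 89.1 to 93.4 with them, whereas DCX moved from percentile 39.3 to 45.6 down to 2.10 to 8.52.

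The genes whose levels followed NEFM most closely over the 8 libraries were ZNF251, GPRC5B and TBC1D8, each with a Pearson correlation of 0.999 on the log2 scale. For STMN2 they were PRKAR1B at 0.998, PLXNA2 at 0.997 and PODXL2 at 0.997. Between NEFM and the other members the correlation ranged from 0.702 for NEFL to 0.985 for GAP43. The 8 libraries fall into sets with and without cytokines, so these values describe likeness and carry no test.

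Reads of related or overlapping genes limit some of these levels, since the libraries kept no strand. An lncRNA on the opposite strand (ENSG00000272163) covers 26.4% of the NEFM exons and was itself listed at 1.27 to 2.23 FPKM. The NEFL exons overlap an opposite lncRNA (ENSG00000272157) that was listed at 0. A readthrough gene on the same strand (ENSG00000198211) covers 21.3% of the TUBB3 exons and reached at most 3.33 FPKM. TUBB3 also has near relatives, of which TUBB stood at 707 to 803 FPKM, and how shared reads were divided is not given in the sources used here.

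Other genes of the neuronal cytoskeleton were mixed in direction. Of 22 such genes 18 were tested, and with cytokines and no PM10 limma called 7 lower and 4 higher, with a median log2 difference of -0.17. Over all genes, 30.3% were called lower and 25.9% higher in this comparison, and the counts of the lists that follow stand against these shares. INA (α-internexin, another neuronal filament protein) fell from 4.12 to 1.59 FPKM, a log2 difference of -0.98 (SE 0.078, limma adjusted p = 4.01e-05), and NEFH, the heavy neurofilament chain, fell by 0.59 on the log2 scale (adjusted p = 0.000209). The level of NEFH was 22.5 and 20.8 FPKM in normal hIECs, 31.8 and 30.6 with PM10, 13.8 and 14.4 in inflamed hIECs, and 13.3 and 12.2 in inflamed hIECs with PM10. Its response to PM10 differed between normal and inflamed hIECs, with an interaction of -0.65 (SE 0.091, limma adjusted p = 0.0104), a call lost without normal PM10 replicate 1 or inflamed replicate 2 (adjusted p = 0.0552 and 0.0519). MARCKSL1, an actin-binding protein, fell from 165 to 88.0 FPKM. MAP1A, a microtubule-associated protein, rose by 0.70 on the log2 scale (limma adjusted p = 3.39e-05), and KIF1A, an axonal transport motor, rose from 1.05 to 1.92 FPKM and further to 4.43 FPKM with PM10. MAP2, a marker of dendrites, was at 3.62 to 5.37 FPKM over all libraries, with a log2 difference of 0.030 (95% interval -0.33 to 0.39).

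Among 6 other β-tubulins tested, 3 were lower and 2 higher with cytokines. TUBB4A, a tubulin of neurons and glia, fell from 11.9 to 3.04 FPKM (log2 difference -1.67, SE 0.082, limma adjusted p = 3.63e-06), whereas TUBB6, a widely used tubulin, rose from 86.6 to 135 FPKM (log2 difference 0.64, SE 0.07, adjusted p = 0.000208). The neuronal RNA-binding list had 9 tested genes, of which 5 were lower and none higher. ELAVL2, a Hu family gene of the list, fell from 20.8 ± 1.83 to 6.49 ± 0.267 FPKM (SD, n = 2), a log2 difference of -1.54 (SE 0.07, limma adjusted p = 2.37e-06). RBFOX3, which encodes the neuronal nuclear antigen NeuN, was listed at 0 in every library, as were RBFOX1 and SRRM4.

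The synaptic and excitability list had 21 tested genes of 30, of which 12 were called lower and 6 higher with cytokines, with a median log2 difference of -0.40. SYT4, a vesicle protein, fell from 21.7 to 1.22 FPKM (log2 difference -3.35, SE 0.096, limma adjusted p = 2.54e-07). SNAP25, part of the vesicle fusion machinery, fell from 18.5 to 9.07 FPKM. L1CAM, an adhesion molecule of axons, rose from 2.33 to 19.0 FPKM (log2 difference 2.59, SE 0.056, limma adjusted p = 6.15e-08). SYP (synaptophysin) and SYT1, both vesicle proteins, rose by 0.42 and 0.72 on the log2 scale (adjusted p = 0.00229 and 0.00012).

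**Figure D4:**
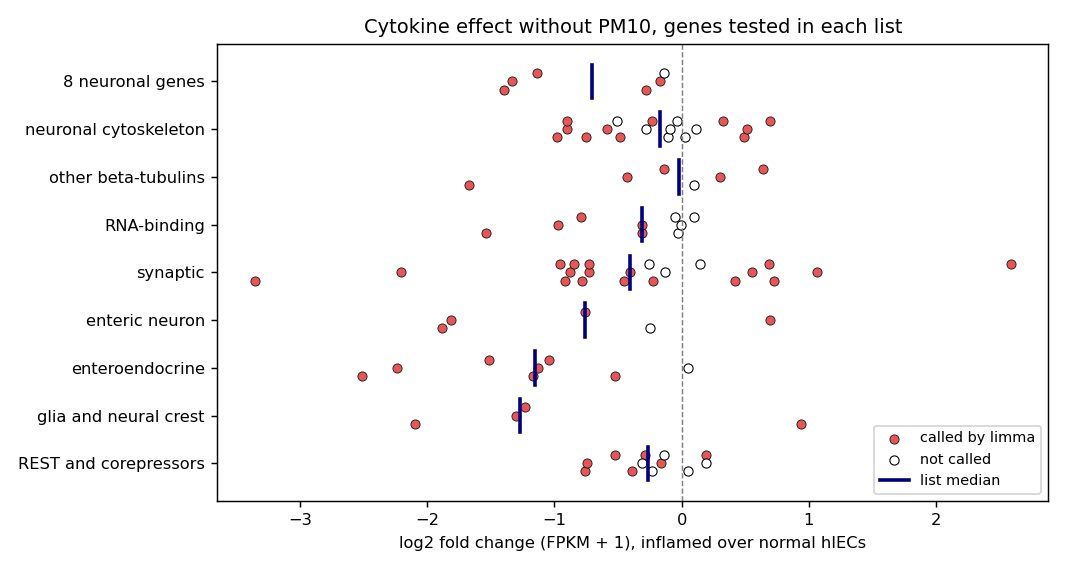
Difference in log2(FPKM + 1) between inflamed and normal hIECs for each tested gene of 9 lists (points, genes, moved up or down within a row for visibility; filled, limma adjusted p-value under 0.05; bar, median of the list). The 8 neuronal genes, of which 6 were tested, have a median of -0.71, the synaptic list spreads from -3.35 to 2.59, and 7 of the 8 enteroendocrine genes tested are called lower.

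With PM10 in both groups, limma called 12 of the 18 cytoskeletal genes lower and 4 higher with cytokines, 13 of the 21 synaptic genes lower and 7 higher, and 4 of the 9 RNA-binding genes lower and 0 higher, where 39.6% of all genes were lower and 25.8% higher. In normal hIECs, 2 cytoskeletal genes were higher and 1 lower with PM10, 2 synaptic genes were higher and 1 lower, and 1 RNA-binding gene was higher and 0 lower, beside 5.51% and 3.72% of all genes. SYT4 was among them and rose from 21.7 to 32.9 FPKM (log2 difference 0.58, SE 0.096, limma adjusted p = 0.0154). In inflamed hIECs, 2 cytoskeletal genes were higher and 4 lower with PM10, 5 synaptic genes were higher and 1 lower, and none of the RNA-binding genes were called, beside 6.22% of all genes higher and 9.02% lower. L1CAM rose there from 19.0 to 23.4 FPKM (log2 difference 0.29, SE 0.056, limma adjusted p = 0.0164), and SNAP25 fell from 9.07 to 6.71 FPKM (log2 difference -0.38, SE 0.071, adjusted p = 0.0137).

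Markers of particular cells of the gut wall moved as well. Of 18 enteric neuron markers 5 were tested, of which 3 were lower and 1 higher with cytokines, and 8, among them RET, CHAT, NOS1 and VIP, were listed at 0 in every library. The summed level of this list was 600 to 637 FPKM in normal hIECs, 729 to 817 with PM10, 671 to 748 in inflamed hIECs and 766 to 798 in inflamed hIECs with PM10. UCHL1, an abundant neuronal ubiquitin hydrolase, rose from 336 ± 1.35 to 547 ± 58.0 FPKM with cytokines (SD, n = 2), and TAC1, the precursor of substance P, fell from 257 ± 25.9 to 150 ± 1.33 FPKM. UCHL1 and TAC1 made up most of the summed level of this list in every group. Of 10 markers of enteric glia and neural crest 4 were tested, of which 3 were lower and 1 higher, and SOX10, GFAP and CDH19 were at 0. Their summed level was 16.1 to 17.8 FPKM in normal hIECs, 12.5 to 12.95 with PM10, 5.96 to 6.11 in inflamed hIECs and 4.07 to 4.54 in inflamed hIECs with PM10. The part of these cell types in the changes of the 6 genes was not tested.

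Enteroendocrine cells, hormone cells of the gut epithelium, share secretory genes with neurons. Of 20 such genes 8 were tested, and 7 were called lower with cytokines and none higher (median log2 difference -1.15). PCSK1N, an inhibitor of prohormone processing, fell from 81.4 to 16.5 FPKM, and SST (somatostatin) was at 4.73 FPKM in normal hIECs and listed at 0 in all libraries with cytokines. SST thus reached the minimum for testing only without cytokines. The summed level was 328 to 361 FPKM in normal hIECs, 358 to 370 with PM10, 166 to 167 in inflamed hIECs and 227 to 230 in inflamed hIECs with PM10, and the defining genes CHGA, NEUROG3 and INSM1 were at 0 throughout. Neural progenitor markers were mostly at 0, 8 of 12, while SOX4 and SOX11 were lower and NES higher with cytokines, with summed levels of 76.8 to 88.7 FPKM over all libraries. Of the 12 genes of REST and its corepressors, which silence neuronal genes in other cells, 6 were called lower and 1 higher (median log2 difference -0.26). The gene called higher was REST itself, at 5.13 and 4.74 FPKM in normal and 5.88 and 5.69 FPKM in inflamed hIECs, with a log2 difference of 0.19 (SE 0.07, limma adjusted p = 0.0478). This call was lost when any library but normal replicate 1 was left out (adjusted p-values of 0.0638 to 0.178). The list had a summed level of 225 to 249 FPKM in normal hIECs, 264 to 284 with PM10, 186 to 189 in inflamed hIECs and 191 to 213 in inflamed hIECs with PM10. Whether any of these genes bears on the neuronal genes was not tested.

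The labelled cell type was read against its markers. Of 16 intestinal epithelial markers only 4 were tested, and CDX2, VIL1, KRT20, CLDN3, CLDN7, ESRP1 and GRHL2 were listed at 0 in all 8 libraries. EPCAM was at 0 to 0.622 FPKM. KRT8 and KRT18 were high, and both fell with cytokines, KRT8 from 378 to 215 FPKM and KRT18 from 266 to 134 FPKM. Of the 4 tested markers these 2 were called lower, none was called higher and 2 were not called. The epithelial list summed to 652 to 662 FPKM in normal hIECs and 609 to 647 with PM10. It summed to 359 to 362 in inflamed hIECs and 298 to 316 in inflamed hIECs with PM10. KRT8 and KRT18 made up most of these sums. All 15 mesenchymal markers were tested, and with cytokines and no PM10 limma called 8 higher and 5 lower. Over all genes, 25.9% were called higher and 30.3% lower. The summed level of these markers was 6504 to 6526 FPKM in normal hIECs and 5707 to 5768 with PM10. It was 7841 to 7926 in inflamed hIECs and 7374 to 7404 in inflamed hIECs with PM10. Such a sum follows the most abundant genes of the list. The libraries thus carry the name hIECs from their labels, while 7 of the 16 epithelial markers, several of them defining, are listed at 0. All 10 proliferation markers were called higher with cytokines (median log2 difference 0.76), with sums of 160 to 167 FPKM in normal and 291 to 294 FPKM in inflamed hIECs, and their part in the neuronal values was not tested.

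**Figure D5:**
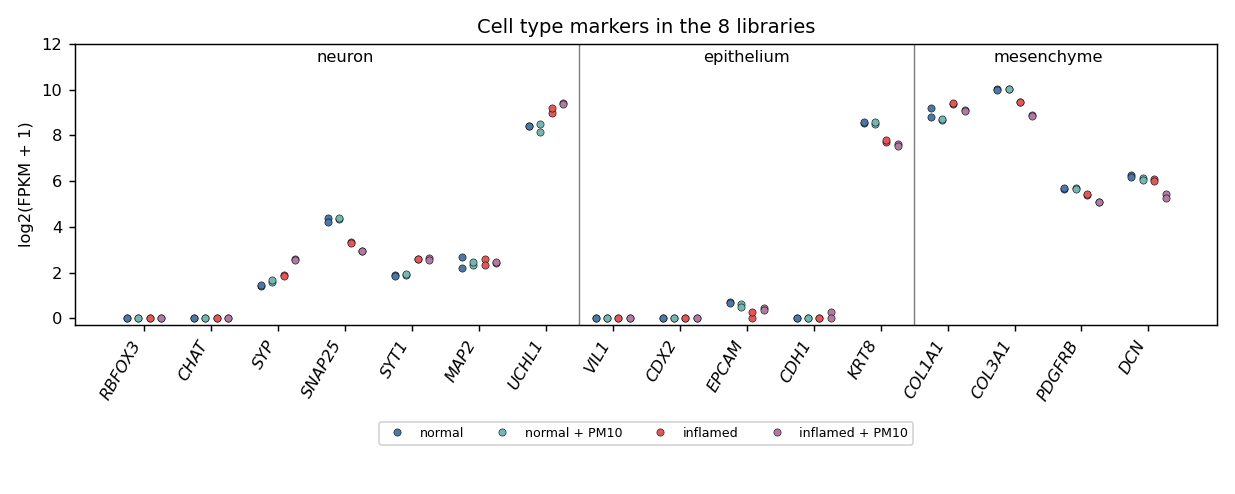
Level of selected cell type markers as log2(FPKM + 1) in the 8 libraries (points, coloured by group). Among neuronal markers RBFOX3 and CHAT lie at 0 and UCHL1 between 8 and 10, among epithelial markers VIL1 and CDX2 lie at 0 while KRT8 is high, and the mesenchymal markers COL1A1, COL3A1, PDGFRB and DCN are high in every group.

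As a check of the labels, CXCL10, a chemokine induced by interferon, stood at 1.502 ± 0.329 FPKM in normal hIECs and 1299 ± 21.9 FPKM in inflamed hIECs (SD, n = 2), a log2 difference of 9.03 (SE 0.088, limma adjusted p = 2.03e-09). Genes of mitochondrial DNA took 15.5% to 24.2% of the summed FPKM, and the 2 normal libraries differed most from each other, at 17.02% and 24.2%. The labels do not say that the 2 libraries of a group came from separate cultures, so p-values measure only the spread between these samples, which may be technical. For a single gene, the smallest two-sided p-value that an exact permutation of 2 against 2 libraries allows is 0.333.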

How the data were processed

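RNA-seq of 8 libraries of hIECs was analysed, grouped by the labels. The authors took RNA of an integrity number over 7.5, made libraries that were, per the labels, poly-A selected and not strand-specific, trimmed reads of 2 × 100 bases (Cutadapt 3.7, Sickle, Phred 20, reads under 50 bases dropped), aligned them to GRCh38 with HISAT2 2.2.1 and deposited FPKM from StringTie 2.2.0. The annotation release is not given in the sources used here. GENCODE release 44, which held 99.5% of the identifiers, gave positions and overlaps. No counts were used, so the depth per library is unknown, and values under 0.164 to 0.228 FPKM appear as 0.

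Genes that reached 1 FPKM in 2 or more libraries were tested, 14206 in all. Their log2(FPKM + 1) entered one limma fit of the 8 libraries (version 3.58.1 in R 4.3.3, trended variance), followed by Benjamini-Hochberg adjustment in each of 5 comparisons (threshold 0.05). The fit was also run on simulated data, in which libraries varied independently with spreads taken from these libraries. That run cannot show whether the calls hold if the libraries of a group are technical repeats. The members and the other lists were chosen with earlier results of these data known, and lists are described by counts and medians. From each other list, at most 5 called genes with the largest change were eligible to be named, for cytokines without PM10 or PM10 in inflamed hIECs. NEFH, MAP1A, MAP2, SYP, SYT1, REST, TUBB and EPCAM were named after their values were seen. COL1A1, COL3A1 and PDGFRB fall outside this rule as well and were listed as defining markers of mesenchyme. The genes most like NEFM and STMN2 are the 3 with the highest Pearson correlation of log2(FPKM + 1). Alternatives covered the pseudocount, filters, scaling, the trend, the replicate block, the groups in the fit and each library left out. Some genes of the lists and 3 of the 5 motifs searched are not reported here. Python 3.11.15, pandas 2.3.3 and matplotlib 3.10.9 were used.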

Additional observations from a re-analysis of the deposited data

Results flagged for a closer look

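For 12 of the genes described or plotted, the response to PM10 differed between normal and inflamed hIECs by limma's interaction test, among the 6.6% of all genes that did. The NEFM interaction, in log2 units, was -0.75 (limma adjusted p = 0.00247), from 0.19 with PM10 in normal hIECs and -0.56 in inflamed hIECs. TAC1 had an interaction of -1.33 (limma adjusted p = 0.00133), with a log2 difference with PM10 of 0.74 in normal hIECs and -0.59 in inflamed hIECs, both called. Its levels were 257 and 427 FPKM in normal hIECs without and with PM10, and 150 and 99.5 FPKM in inflamed hIECs.

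NEFH, the heavy neurofilament chain, had an interaction of -0.65 (limma adjusted p = 0.0104), since it rose by 0.51 with PM10 in normal hIECs and was at -0.14 in inflamed hIECs (adjusted p = 0.189). The rise of NEFH in normal hIECs was 0.48 without normal PM10 replicate 1, where its call was lost. The call was also lost when the 2 groups alone were fitted (limma adjusted p = 0.0922). SOX4, a transcription factor of progenitor cells, had an interaction of -0.59 (limma adjusted p = 0.00528), with 0.19 in normal hIECs and -0.40 in inflamed hIECs. SNAP25 had an interaction of -0.47 (limma adjusted p = 0.0373), from 0.089 to -0.38, and MARCKSL1 had an interaction of -0.36 (adjusted p = 0.0272), from 0.072 to -0.29. SCG2, a secretory granule protein, had an interaction of 0.69 (limma adjusted p = 0.0264), since it rose by 0.37 on the log2 scale in normal and by 1.06 in inflamed hIECs. SST had an interaction of -0.93 (limma adjusted p = 0.0109), and as SST was listed at 0 in all libraries with cytokines, this value is the rise from 4.73 to 9.92 FPKM in normal hIECs alone. SYP had an interaction of 0.52 (limma adjusted p = 0.0334), from 0.18 in normal hIECs, which was not called, to 0.70 in inflamed hIECs. The mesenchymal markers COL3A1, DCN and PDGFRB had interactions of -0.60, -0.59 and -0.32 (limma adjusted p = 0.00219, 0.0215 and 0.0319). Their list went both ways. Of its 15 markers, limma called 6 lower and 4 higher in the interaction, beside 4.48% and 2.11% of all genes. Over all genes, far fewer interactions were called when certain single libraries were left out. Apart from NEFM and NEFH, the interactions named here are given without that check.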

How the results depend on the processing

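Across the 6 genes and 5 comparisons, 469 log2 differences were recomputed under alternatives. Of these, 443 kept their direction and their side of the threshold, 13 lost a call, 7 gained one and 6 changed sign, and none of the 6 was called. GAP43 with PM10 in normal hIECs was -0.044 under median centring, -0.052 under quantile normalization and -0.010 to 0.031 with libraries left out, lowest without normal PM10 replicate 2. DCX was -0.0011 to 0.24 there with libraries left out, lowest without normal replicate 2. Under quantile normalization DCX was 0.12 with PM10 in inflamed hIECs and 0.021 in the interaction. With PM10 in normal hIECs, 1 member was called higher with a minimum of 5 FPKM (NEFM), a filter that left DCX untested, 2 with quantile normalization, and 0 to 3 with libraries left out. With PM10 in inflamed hIECs, 0 to 1 member was called higher with libraries left out. Leaving out libraries gave 194 to 2627 genes called with PM10 in normal hIECs (1311 with all libraries, 23 when the 2 groups alone were fitted), 675 to 2992 with PM10 in inflamed hIECs (2165) and 263 to 1266 in the interaction (937). A library left without its partner is assumed to vary like the other groups. After median centring, 359 genes were lower in all PM10 libraries without overlap, instead of 225. Libraries with the same replicate number did not deviate together (correlations of -0.0015 to 0.079), and with the replicate block 1051, 7957, 9264, 1966 and 762 genes were called in the 5 comparisons and no call among the 6 genes changed. The cause of these differences was not tested. FPKM without counts gives no interval for single libraries, which limits DCX most.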
